A study of Mus musculus with 15 samples.

Results

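The 41 genes described here drive the cell cycle and the copying of DNA, and they were taken as a fixed list of symbols from the 22342 protein-coding genes of the mouse mm9 annotation. All 41 were found. They comprise 9 genes of origin licensing, 4 of DNA synthesis, 8 G1 cyclins and their kinases, 4 S and M phase cyclin and kinase genes, 6 of mitosis, 4 Cdk inhibitors and 6 E2F and Myc factors. ChIP-seq tags of 3 histone marks were counted in a window around the start of each gene, 3 kb wide for H3K27Ac and H3K4Me1 and 5 kb wide for H3K27Me3. The cells were C10 cells, a line derived from HAFTL mouse pre-B cells that carries C/EBPα fused to the estrogen receptor hormone-binding domain together with GFP, so that estradiol switches the factor on and the cells turn into macrophages. Cells were induced with β-estradiol (100 nM) in the presence of the cytokines IL-3 and CSF-1, each at 10 nM, and control cells received the solvent, 0.1% ethanol. The labels do not say which libraries came from control cells, and those of 0 hpi are taken here only as the start of the time course. Libraries were made at 0, 3, 12, 24 and 48 h post-induction (hpi) from a single engineered line. With 1 library per mark and time, 15 in all, no replicate error exists, no test was possible, and the intervals given cover counting error only. Because the cells were analysed in bulk, fewer cells carrying a mark and less of the mark per cell cannot be told apart.

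Cells divide by passing a series of checkpoints. In G1 the D cyclins with Cdk4 and Cdk6, and then the E cyclins with Cdk2, inactivate the retinoblastoma proteins and free the E2F factors, which switch on the genes of DNA synthesis. Origins are licensed by loading of the Mcm2-7 helicase with the help of Cdc6 and Cdt1, and the A and B cyclins with Cdk1 then take the cell through mitosis. Macrophages formed from C/EBPα-induced pre-B cells leave the cycle, and the question was whether the marks at these starts change. H3K27Ac marks active promoters and enhancers, H3K4Me1 flanks them, and H3K27Me3 is the mark of Polycomb repression.

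H3K27Ac fell at most of these starts. In the order 0, 3, 12, 24 and 48 hpi the median window held 505, 480, 325, 273 and 173 tags, which is 27.1-fold the genome mean at the beginning and 9.28-fold at the end. The level thus dropped at each step, most clearly after 3 hpi. The median log2 change from 0 hpi, with 5 tags added to each count, was -0.03, -0.44, -0.75 and -1.37 at the 4 later times. Over all starts these medians were 0.13, 0, -0.14 and -0.15, and relative to the median of active starts, those with strong H3K27Ac, the members lay at -0.17, -0.39, -0.77 and -1.10. At 48 hpi 38 of 41 members lay below their 0 hpi value, against 56% of all and 68.9% of active starts, and 27 of 41 (65.9%) were at least 2-fold lower, against 9.36% of all starts. As 40 of the 41 were active starts, meaning a mean H3K27Ac level of at least 4-fold the genome mean over the 5 libraries, the closer background is the 9721 active starts, of which 14.3% were at least 2-fold lower and whose median change was -0.27. The exception was Mycn. Active starts held a median of 305 tags at 0 hpi, against 505 for members, so this background is not matched for starting level. Among active starts the change to 48 hpi was lower where 0 hpi tags were higher (Spearman correlation -0.38), and among members the correlation was -0.02. How active starts as strong as the members changed was not tested. Only Cdkn1a was at least 2-fold higher, against 5.35% of all starts and 4.05% of active starts. This was at the start used, with 49 tags at 0 hpi. At its further starts the change was 0.31 (the strongest, 475 tags at 0 hpi) and 2.29.

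**Figure D1:**
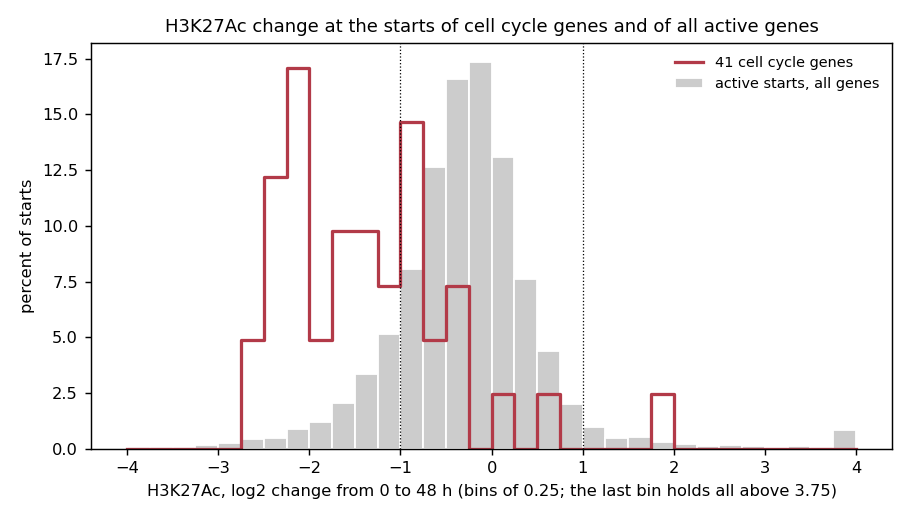
Distribution of the H3K27Ac log2 change from 0 to 48 hpi. The horizontal axis gives the log2 change in bins of 0.25 and the vertical axis the percent of starts; grey bars are the 9721 active starts, the red outline the 41 cell cycle genes, and dotted lines mark a 2-fold change. The active starts centre on a median of -0.27, whereas most of the red outline lies left of the lower dotted line, with 27 of 41 members there.

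By a Poisson cutoff of 34 tags per window, 40 of 41 members were marked by H3K27Ac at 0 hpi and 40 of 41 still at 48 hpi (46.4% and 47.3% of all starts, 98.5% and 99.4% of active starts, which are themselves defined by H3K27Ac). Timing differed among the genes. At 3 hpi 1 member was at least 2-fold lower (1.8% of all and 1.71% of active starts) and 1 was higher (4.21% and 2.67%). At 12 hpi 4 were lower (3.23% and 2.75%) and 0 higher (4.33% and 4.16%). At 24 hpi 17 were lower, against 8.75% of all and 6.11% of active starts, and 1 was higher, against 4.67% and 6.37%. Of the 27 members lower at 48 hpi, 1, 2, 13 and 11 crossed 2-fold at the 3, 12, 24 and 48 hpi libraries respectively, counting from the time after which they stayed lower. Between 24 and 48 hpi 37 of 41 members declined, but so did 84.4% of active starts (49.0% of all starts), and the members' median went from -0.75 to -1.37 while that of active starts went from 0.02 to -0.27. At 48 hpi Mcm4, Cdk2, Cdkn2c, E2f3, E2f8, Bub1 and Cdc20 fell short of 2-fold when libraries were scaled over bins enriched at all times, which left 20 members called. The 24 hpi count depends on scaling. When the libraries were set equal over bins without enrichment, which adds 0.77 to every log2 change at 24 hpi and moves the median of all starts from -0.14 to 0.34, 7 members were lower and 5 higher at that time, although the members' median stayed 0.77 below that of active starts under both scalings.

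**Figure D2:**
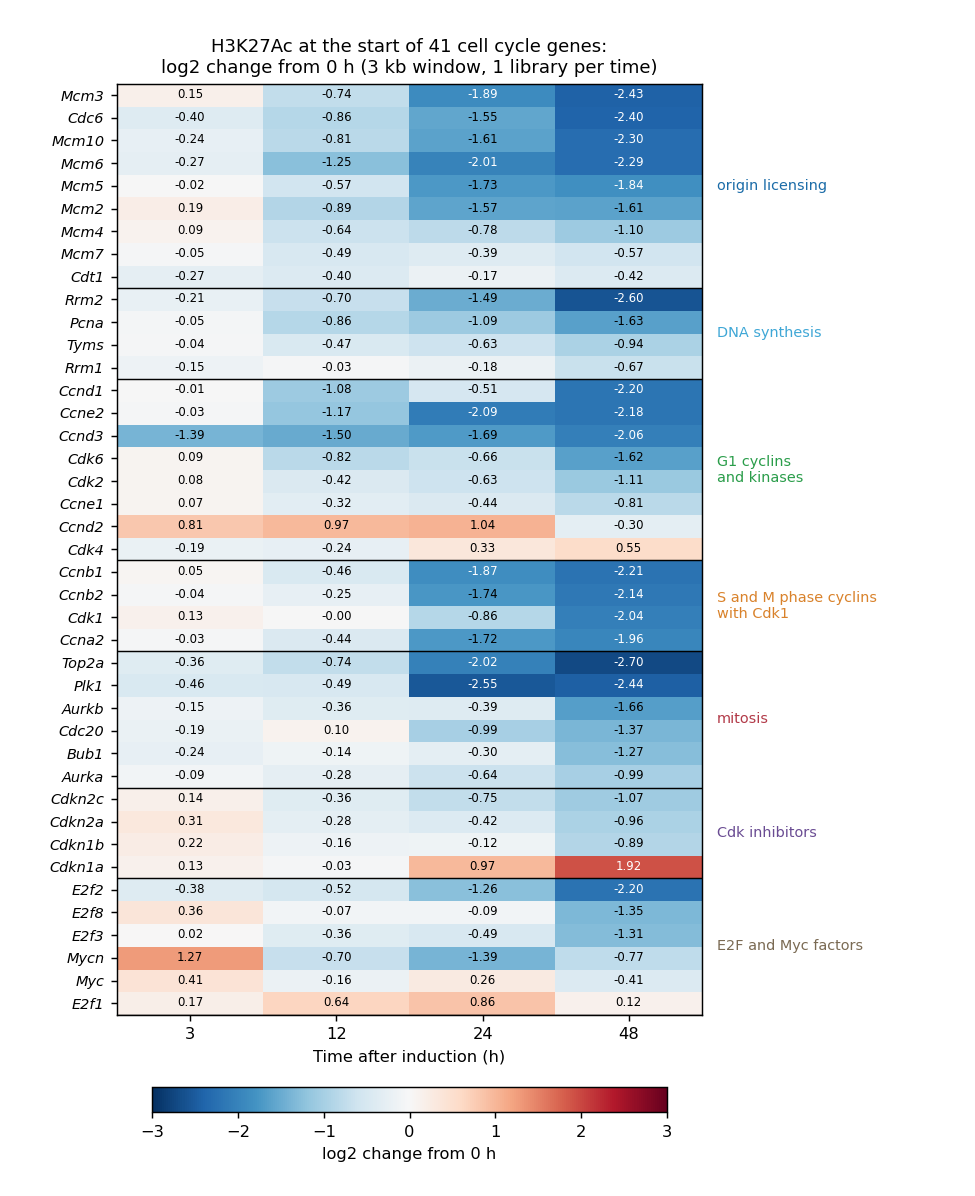
H3K27Ac log2 change from 0 hpi at the start of each of the 41 genes. Rows are genes grouped by role and ordered by their 48 hpi value, columns are 3, 12, 24 and 48 h after induction, and the printed number and colour both give the log2 change (blue lower, red higher; 1 library per time). Blue deepens from left to right in most rows, while Cdkn1a, at the start used, ends at 1.92 and Cdk4 at 0.55.

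The promoter sequences carried features that the list of genes was not chosen for. RefSeq promoter entries (300 bases, from 250 before to 50 after the start, GRCm38.p6) were matched by symbol for 34 members, with 41 entries. Aurkb, Ccna2, Ccnd1, Ccnd2, Ccne2, Mcm4 and Myc were not matched. The E2F words TTTCCCGC, TTTGGCGC, TTTCGCGC and TTTGCCGC, searched on both strands, occurred in 29.3% of member entries against 2.28% of all 32619 entries. By gene, 12 of 34 members (35.3%) held such a word against 5.28% of genes with an active start. CCAAT, the word bound by NF-Y, occurred in 65.9% of member entries against 37.6% of all, and by gene in 25 of 34 members (73.5%) against 43.3% of genes with an active start. The cell cycle homology word TTTGAA occurred in 26.8% of member entries (17.6% of all) and the E-box CACGTG in 12.2% (7.20% of all). By gene TTTGAA was found in 32.4% of members against 14.1% of genes with an active start, whereas the E-box, in 14.7% against 12.4%, was near that background. Members with a CCAAT word were at least 2-fold lower in H3K27Ac at 48 hpi in 20 of 25 cases and members without it in 2 of 9, while among active starts the shares were 14.8% with and 12.6% without. For the E2F words the corresponding member counts were 8 of 12 with and 14 of 22 without, and the shares among active starts were 23.1% with and 13.0% without. For TTTGAA they were 9 of 11 and 13 of 23, and 19.3% and 12.6%. In these counts a word in any entry of a gene was taken, which need not lie at the start used. The CCAAT of Ccnd3 and the TTTGAA of E2f2 lay only in the entry of the further start. The roles of the genes were not separated from the words. A match of letters is a description, not a bound site. Shown here are the 250 bases before the start, in the direction of the gene, of 2 licensing genes, 3 genes of G2 and mitosis, and Cdk4, at which H3K27Ac rose. Capitals mark any of the words on either strand, and a longer run of capitals is a pair of overlapping words.
Mcm5: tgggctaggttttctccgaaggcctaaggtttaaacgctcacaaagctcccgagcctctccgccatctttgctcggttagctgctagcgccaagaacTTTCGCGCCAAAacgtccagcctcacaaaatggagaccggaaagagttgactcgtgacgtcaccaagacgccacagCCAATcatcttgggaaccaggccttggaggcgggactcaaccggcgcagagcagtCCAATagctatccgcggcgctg
Mcm6: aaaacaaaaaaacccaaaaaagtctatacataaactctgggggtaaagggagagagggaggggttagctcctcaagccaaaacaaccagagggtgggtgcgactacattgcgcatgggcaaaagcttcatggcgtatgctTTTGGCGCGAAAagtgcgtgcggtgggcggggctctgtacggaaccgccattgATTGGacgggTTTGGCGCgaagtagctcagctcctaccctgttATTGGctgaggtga
Cdk1: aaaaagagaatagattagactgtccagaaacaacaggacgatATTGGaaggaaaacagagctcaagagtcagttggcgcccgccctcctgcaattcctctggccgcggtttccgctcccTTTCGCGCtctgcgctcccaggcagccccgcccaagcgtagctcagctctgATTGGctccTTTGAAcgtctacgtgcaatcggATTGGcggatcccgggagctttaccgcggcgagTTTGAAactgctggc
Ccnb2: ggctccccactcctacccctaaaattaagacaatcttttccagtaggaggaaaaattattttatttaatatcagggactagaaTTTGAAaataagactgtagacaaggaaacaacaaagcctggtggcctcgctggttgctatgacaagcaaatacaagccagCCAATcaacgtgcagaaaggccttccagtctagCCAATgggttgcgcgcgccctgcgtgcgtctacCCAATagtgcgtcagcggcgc
Top2a: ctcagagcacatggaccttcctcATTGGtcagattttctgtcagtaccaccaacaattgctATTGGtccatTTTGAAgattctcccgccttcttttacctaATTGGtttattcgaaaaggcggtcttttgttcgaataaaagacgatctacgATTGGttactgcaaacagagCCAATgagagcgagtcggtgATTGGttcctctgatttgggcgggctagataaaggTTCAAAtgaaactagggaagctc
Cdk4: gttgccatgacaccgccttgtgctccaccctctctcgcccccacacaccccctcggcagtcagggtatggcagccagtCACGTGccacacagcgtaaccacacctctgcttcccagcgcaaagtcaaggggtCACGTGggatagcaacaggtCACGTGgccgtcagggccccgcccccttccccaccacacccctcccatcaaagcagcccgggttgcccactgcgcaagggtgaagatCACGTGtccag
These lie at chr8:75109259-75109508 (Mcm5, plus strand), chr1:128359706-128359955 (Mcm6, minus), chr10:69352913-69353162 (Cdk1, minus), chr9:70421555-70421804 (Ccnb2, minus), chr11:99024190-99024439 (Top2a, minus) and chr10:127063285-127063534 (Cdk4, plus) of GRCm38.p6. Within the printed bases Mcm6 held 3 E2F words and 2 CCAAT words, Ccnb2 3 CCAAT words and 1 TTTGAA, Top2a 6 CCAAT words and 2 TTTGAA, and Cdk4 none of these but 4 E-boxes.

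Most origin licensing genes fell. Of the 9 genes, 7 were at least 2-fold lower at 48 hpi and the median change was -1.84. Mcm3, a subunit of the replicative helicase, held 259, 288, 153, 66 and 44 tags at 0, 3, 12, 24 and 48 hpi (log2 change -2.43, counting interval -3.05 to -2.09). Cdc6, which loads the helicase onto origins, held 455, 344, 248, 152 and 82 tags in the same order (-2.40, -2.83 to -2.13). For both genes the level was already reduced at 12 hpi and was lowest at 48 hpi. Mcm10, an initiation factor, went from 324 through 273, 183 and 103 to 62 tags, and the helicase subunit Mcm6 from 596 through 494, 248 and 144 to 118 tags, below 2-fold from 12 hpi onwards. Mcm5 held 417, 412, 279, 122 and 113 tags, Mcm2 230, 264, 122, 74 and 72, and Mcm4 511, 546, 325, 295 and 236. The last 3 subunits had thus reached most of their decrease by 24 hpi. Mcm4 shares its window with the start of Prkdc, 466 bp upstream. The remaining pair changed little. Mcm7, which shares its window with Ap4m1, held 539, 522, 383, 409 and 362 tags (-0.57, -0.77 to -0.38), and Cdt1, the other helicase loader, kept 953, 788, 720, 846 and 713 tags (-0.42, -0.56 to -0.28).

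The 4 genes of DNA synthesis all ended lower, 2 of them at least 2-fold, with a median of -1.28. Rrm2, the regulated subunit of ribonucleotide reductase, held 854, 737, 524, 300 and 137 tags at the 5 times (-2.60, -2.91 to -2.38), and so dropped at every step. Pcna, the sliding clamp of the polymerases, held 572, 551, 314, 266 and 182 tags (-1.63, -1.90 to -1.41). Tyms, which makes thymidylate, went from 425 to 219 tags (-0.94, -1.20 to -0.72), and Rrm1, the large reductase subunit, from 561 to 350 tags (-0.67, -0.88 to -0.49). The 2 reductase subunits therefore differed, Rrm1 lying at 493 tags at 24 hpi when Rrm2 was at 300.

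Among the G1 cyclins and kinases the D cyclins went separate ways. Ccnd3, the D cyclin on which the expansion of pre-B cells depends, had 1039, 394, 364, 318 and 245 tags at the 5 times (-2.06, -2.29 to -1.88). It was the only member at least 2-fold lower at 3 hpi. Its other annotated start, 88416 bp downstream, kept 838, 949, 625 and 661 tags until 24 hpi and held 224 at 48 hpi, so the early loss was at the start used and not there. Ccnd1 held 661, 657, 309, 464 and 140 tags (-2.20, -2.51 to -1.97), with a partial return at 24 hpi. Ccnd2 rose before it fell, with 119, 212, 238, 250 and 96 tags, reaching a log2 change of 1.04 at 24 hpi and -0.30 (-0.71 to 0.09) at 48 hpi. Ccne2, a partner of Cdk2, held 640, 627, 282, 146 and 137 tags (-2.18, -2.50 to -1.96), whereas Ccne1 went only from 352 to 198 (-0.81, -1.09 to -0.57). Cdk6 held 655, 698, 370, 413 and 210 tags (-1.62, -1.87 to -1.41). Cdk2, whose window also holds the Pmel start, held 505, 533, 375, 325 and 232 (-1.11, -1.35 to -0.90). In this group 5 of 8 genes passed 2-fold, with a median of -1.36.

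All 4 S and M phase genes passed 2-fold at 48 hpi, with a median of -2.09. Ccnb1, which with Cdk1 triggers mitosis, held 277, 287, 200, 72 and 56 tags (-2.21, -2.75 to -1.89), and Ccnb2 303, 295, 254, 87 and 65 (-2.14, -2.63 to -1.83). Ccna2, the cyclin of S phase and G2, held 385, 376, 282, 113 and 95 tags (-1.96, -2.36 to -1.69). The 3 cyclins dropped between 12 and 24 hpi. Their kinase Cdk1 was later, with 476, 523, 475, 260 and 112 tags (-2.04, -2.40 to -1.79), and at a further annotated start 2108 bp downstream of the one used the tags were 266, 269, 405, 440 and 273 (0.04, -0.21 to 0.29). A window of 6000 bp, which takes in both starts, gave -0.99.

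Of the 6 mitosis genes 5 passed 2-fold, with a median of -1.52. Top2a, the topoisomerase that untangles chromosomes (start at position 98885503 of chromosome 11 in mm9), showed the largest decrease of all 41, from 385 through 298, 229 and 91 to 55 tags (-2.70, -3.24 to -2.40). Plk1, a mitotic kinase, held 494, 359, 350, 80 and 87 tags (-2.44, -2.85 to -2.17), and had reached its final level at 24 hpi. Aurkb, the kinase of the chromosomal passenger complex, held 886, 796, 687, 676 and 277 tags (-1.66, -1.88 to -1.48), and Bub1, a spindle checkpoint kinase, 232, 195, 210, 188 and 93 (-1.27, -1.68 to -0.97). These 2 genes kept most of their H3K27Ac until 24 hpi. Cdc20, which activates the anaphase-promoting complex, held 420, 367, 450, 209 and 159 tags (-1.37, -1.67 to -1.13). Aurka, whose window also holds the Cstf1 start 146 bp away, ended just inside 2-fold, with 753, 709, 621, 482 and 377 tags (-0.99, -1.18 to -0.82).

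The Cdk inhibitors did not move as a group. Cdkn1a, which encodes p21, held 49, 54, 48, 101 and 199 tags (1.92, 1.56 to 2.50), so the increase appeared at 24 and 48 hpi. This window lies at the upstream of 3 annotated starts. At the start 2793 bp downstream the tags were 475, 569, 539, 662 and 590 (0.31, 0.14 to 0.49), and at the start 7228 bp downstream 35, 68, 131, 175 and 190 (2.29, 1.91 to 3.00). The large changes were thus at the 2 starts that were low in pre-B cells. Cdkn2c, which encodes p18, went from 665 through 735, 518 and 394 to 315 tags (-1.07, -1.28 to -0.88), Cdkn1b (p27) from 565 to 303 (-0.89, -1.11 to -0.70), and Cdkn2a from 891 to 456 (-0.96, -1.13 to -0.80). At the downstream Cdkn2a start, 12461 bp away, the tags were 350, 550, 440, 566 and 296 (-0.24, -0.47 to -0.01). The -0.96 is thus that of the upstream start only, and which product each Cdkn2a start serves was not examined.

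Among the transcription factors E2f2, an activator, held 815, 626, 565, 337 and 173 tags (-2.20, -2.48 to -2.0). E2f3 held 474, 480, 369, 336 and 188 (-1.31, -1.59 to -1.09) and the repressor E2f8 323, 417, 307, 304 and 124 (-1.35, -1.69 to -1.08). Most of the decrease of E2f8 came between 24 and 48 hpi, but it was not called in a window of 6000 bp (-0.57) or at its outermost start (-0.56). E2f1 went the other way first, with 558, 629, 872, 1019 and 608 tags, a log2 change of 0.86 at 24 hpi and of 0.12 (-0.04 to 0.29) at 48 hpi. Myc held 654, 869, 583, 785 and 491 tags (-0.41, -0.59 to -0.24). Mycn was low throughout, with 29, 77, 16, 8 and 15 tags, and was above the Poisson cutoff only at 3 hpi, where its log2 change was 1.27. In this group 3 of 6 were at least 2-fold lower at 48 hpi.

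The loss of H3K27Ac was greater inside the gene than in front of it. Over the 41 members the median log2 change to 48 hpi was -0.86 in the 1500 bp upstream of the start and -1.94 in the 1500 bp downstream. The downstream side was at least 2-fold lower in 31 members (15.3% of active starts) and the upstream side in 16 (17.3%). The downstream side fell more in 31 of 41 members, against 48.3% of active starts, where the medians were -0.28 upstream and -0.24 downstream. At 0 hpi the tallest 500 bp bin of the mean profile lay just downstream of the start, with 137 tags per gene, and at 48 hpi it held 39.5. The bin just upstream went from 90.3 to 47.6 and had become the tallest. Over active starts the bin just downstream remained the tallest, going from 107 to 85.9. A divergent gene start within 1500 bp was present for 4 members, and without them the downstream side fell more in 29 of 37. At Ccnb2 the downstream tags were 195, 206, 148, 17 and 7 at the 5 times and the upstream tags 107, 89, 106, 70 and 58. Ccna2 showed this most clearly, with 333, 312, 213, 26 and 16 tags downstream and 52, 64, 69, 87 and 79 upstream. The downstream side of both genes thus lost most of its tags between 12 and 24 hpi, while the upstream side of Ccna2 kept its tags and that of Ccnb2 lost part of them. Rrm2 was the opposite case, with 418 to 25 tags upstream and 436 to 112 downstream.

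**Figure D3:**
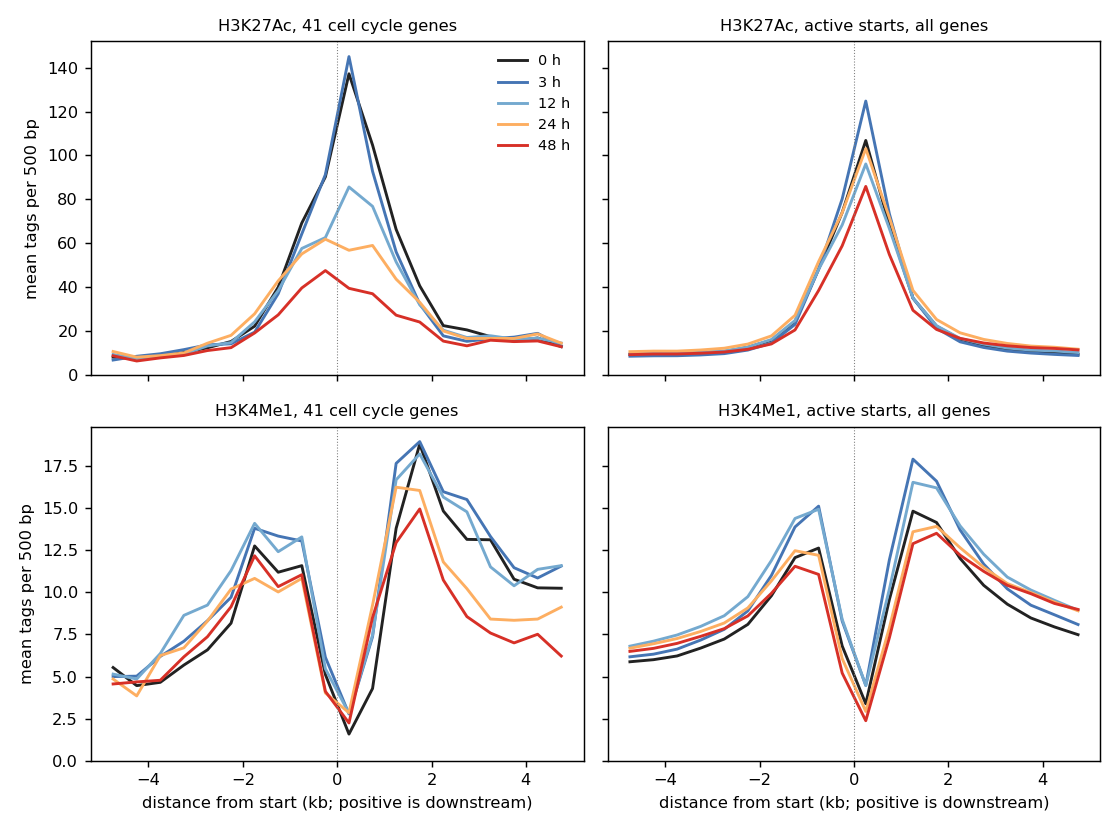
Mean tags per 500 bp around the start at the 5 times, for the 41 cell cycle genes on the left and the 9721 active starts on the right, with H3K27Ac above and H3K4Me1 below. The horizontal axis is the distance from the start in kb, positive downstream, and the vertical axis the mean tags per gene. The H3K27Ac peak of the cell cycle genes drops from 137 tags at 0 hpi to 39.5 at 48 hpi just downstream of the start and moves upstream of it, whereas over active starts it goes from 107 to 85.9 and stays in place.

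Cdk4 departed from the rest. Its window held 524, 459, 444, 661 and 771 H3K27Ac tags (0.55, 0.40 to 0.72), and this sum hides unlike changes upstream and downstream of the start. The 1500 bp upstream of the start had 14, 16, 54, 221 and 400 tags at 0, 3, 12, 24 and 48 hpi, and the 1500 bp downstream 510, 443, 390, 440 and 371. The upstream log2 change of 4.41 was equalled or exceeded by 44 of the 9721 active starts (0.453%). H3K27Me3 lay on that same upstream side. In the 2500 bp upstream its tags were 83, 78, 93, 57 and 19, against 11, 6, 13, 9 and 13 downstream, and the whole 5 kb window held 94, 84, 106, 66 and 32 (-1.42, -2.18 to -0.96). H3K27Ac in front of Cdk4 had begun to increase at 12 hpi, when H3K27Me3 was not yet lower, and most of its increase and the decline of H3K27Me3 fell at 24 and 48 hpi. The start of the divergent gene March9, 3350 bp upstream (Cdk4 starts at position 126500590 of chromosome 10 in mm9, plus strand), held 21, 11, 25, 60 and 109 H3K27Ac tags and 131, 138, 166, 107 and 69 H3K27Me3 tags. Its 5 kb window overlaps the upstream side of Cdk4, so that these H3K27Me3 counts share tags and are not a separate observation. The H3K27Ac at 48 hpi also increased toward Cdk4. It was 19 tags in the 500 bp with the March9 start, 30 at 2000 to 2500 bp upstream of Cdk4 and 90 at 1500 to 2000 bp. A gain at the March9 start was thus not separated from that in front of Cdk4. The sides of Cdk4, its neighbour March9 and the further starts of other genes were singled out after their values were seen.

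**Figure D4:**
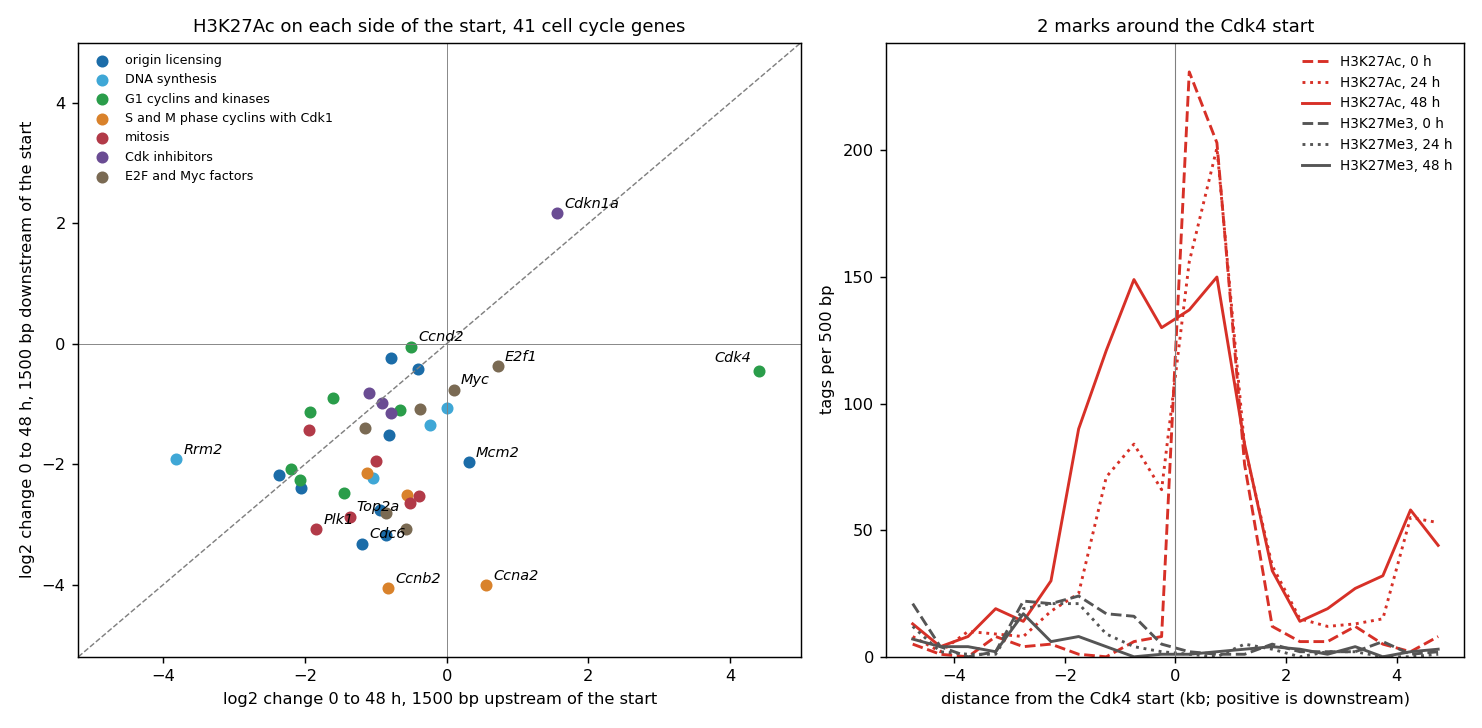
Left, H3K27Ac log2 change from 0 to 48 hpi in the 1500 bp upstream (horizontal axis) and the 1500 bp downstream (vertical axis) of the start, 1 point per cell cycle gene coloured by role, with the dashed line marking equal change; 31 of 41 points lie below it and Cdk4 lies far to the right at 4.41. Right, tags per 500 bp around the Cdk4 start by distance in kb, H3K27Ac in red and H3K27Me3 in grey at 0, 24 and 48 hpi, where H3K27Ac fills the upstream side as H3K27Me3 declines from 83 to 19 tags.

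No gain of H3K27Me3 was called at the starts that lost H3K27Ac in the main setting. Some alternatives, among them another thinning seed, did call members higher. Members held few H3K27Me3 tags, with a median of 15 per window at 0 hpi and again at 48 hpi, below the genome mean. By the cutoff of 51 tags 4 members were marked at 0 hpi and 3 at 48 hpi, close to the 9.18% and 9.95% of active starts and below the 21.1% and 22.9% of all starts. No member was at least 2-fold higher at 48 hpi (0.743% of all and 0.926% of active starts), 2 were lower (1.44% and 1.78%), and 4 were lower at 24 hpi (2.98% and 5.61%). Besides Cdk4 the lower genes were Aurka, with 25, 6, 14, 7 and 9 tags, and at 24 hpi also Mcm5, E2f1 and Tyms, whose windows held between 2 and 5 tags then. These counts are too small to carry a direction. Marked in at least 3 of the 5 libraries were Cdk4, Ccnd2, Cdkn1a and Mycn. Ccna2 lay at the cutoff, with 51, 44, 63, 45 and 49 tags. Ccnd2 held 65, 52, 65, 59 and 68 tags, Cdkn1a 46, 60, 70, 56 and 57, and Mycn 62, 62, 82, 66 and 84. At the Cdkn1a start used H3K27Me3 was thus below the cutoff at 0 hpi and above it later. It did not decline there while H3K27Ac rose, in contrast to Cdk4.

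H3K4Me1 changed little and did not follow H3K27Ac. The median window had 40 tags at 0 hpi and 43 at 48 hpi, the median log2 change was 0.34 at 3 hpi and -0.09 at 48 hpi, and 30 of 41 members were marked at 0 hpi and 30, not all of them the same, at 48 hpi (44.8% and 40.7% of all starts, but 87.1% and 77.6% of active starts). The sign of the 48 hpi median depends on scaling, since scaling over unenriched bins gave 0.61, with 12 members at least 2-fold higher and 1 lower. At 12 hpi 4 members were at least 2-fold higher (3.23% of all and 4.05% of active starts), at 48 hpi 2 were higher (3.41% and 2.08%) and 2 lower (9.7% and 7.39%). The higher pair, a share of members (4.88%) near those shares, were genes of DNA synthesis. Rrm2 held 16, 38, 37, 51 and 63 tags (1.70, 1.17 to 2.87), and Pcna 11, 37, 44, 53 and 40 (1.49, 0.87 to 2.97). Neither call held in other windows, the log2 change being 0.27 for Rrm2 and 0.86 for Pcna in 6000 bp, and 0.51 and 0.26 in 1000 bp. E2f1 was the reverse, with 92, 102, 82, 37 and 22 H3K4Me1 tags (-1.85, -2.81 to -1.38) while its H3K27Ac peaked at 24 hpi, but this call too was lost in other windows (-0.28 in 6000 bp and -0.32 in 1000 bp). Cdk6 had 11, 17, 10, 7 and 3 tags, too few to give a direction. Higher values at 12 or 24 hpi were seen at Ccnd2 (20, 42, 52, 29 and 15), Ccnd1 (14, 31, 35, 7 and 9), Mcm5 (40, 69, 67, 88 and 62) and Ccnb2 (49, 50, 80, 110 and 91), each past 2-fold at 1 of these times and not at 48 hpi, when Mcm5 and Ccnb2 remained above their 0 hpi value.

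**Figure D5:**
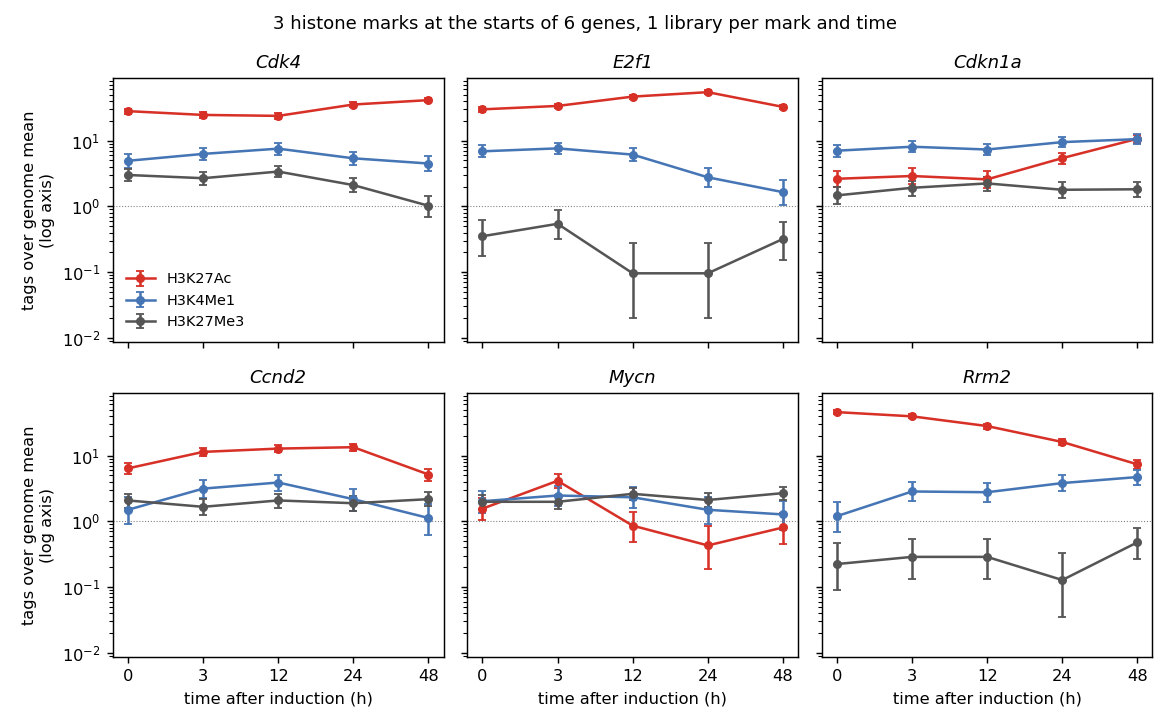
Level of the 3 marks at 6 of the starts by time after induction. The vertical axis (log scale) is the number of tags in the window divided by the genome mean, error bars are exact 95% Poisson intervals and cover counting error only, and the dotted line marks the genome mean; 1 library per point. At Cdk4 the grey H3K27Me3 line descends as the red H3K27Ac line rises, and at E2f1 the blue H3K4Me1 line descends in this window. At the Cdkn1a start used H3K27Ac rises and H3K27Me3 is no lower at 48 than at 0 hpi. At Rrm2 H3K27Ac descends and H3K4Me1 ascends in this window.

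Away from the starts, in the gene and 25 kb on each side, H3K27Ac was not lower in the median member. The members' median log2 change at 48 hpi was 0.23, against 0.41 for genes with active starts, and 25 of 41 members were below 0 hpi at the start yet above it in the surroundings, as were 42.1% of genes with active starts. Here 2 members were at least 2-fold higher (14.8% of all genes and 22% of those with active starts) and 5 lower (6.18% and 6.5%). The 5 were Ccnd3 (12702 to 4153 tags, -1.61), E2f8 (2447 to 764, -1.67), Cdk6 (12709 to 5306, -1.26), E2f2 (1659 to 716, -1.21) and Cdkn1b (2528 to 1184, -1.09). The totals grow with the length of the stretch and are not compared between genes. The higher 2 were Tyms (214, 369, 962, 1168 and 1055 tags, 2.28) and Myc (288, 349, 447, 824 and 597, 1.04). These stretches also cover neighbouring genes.

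Other genes of the same pathways, from lists that do not overlap the members and were drawn up with earlier results of these data known, also included many that were lower. Of 42 further replication genes 21 were at least 2-fold lower in H3K27Ac at 48 hpi and 0 higher (median -1.0), and of 37 further mitosis genes 28 were lower and 0 higher (median -1.47), beside the 14.3% and 4.05% of active starts given above. The largest decreases were Prim1, a primase subunit (232 to 27 tags, -2.89), and Clspn, a checkpoint mediator (326 to 50, -2.59), in replication, and Ube2c, a ubiquitin-conjugating enzyme of anaphase (329 to 29, -3.30), and Cenpf, a kinetochore protein (140 to 11, -3.18), in mitosis. At the other end stood the origin recognition subunits Orc4 (400 to 429, 0.10) and Orc1 (324 to 327, 0.01), the kinesin Kif2c (30 to 49, 0.63), and Pttg1, which encodes securin (148 to 122, -0.27). Of 18 genes that restrain division 3 were lower and 0 higher (median -0.49), a share near the 14.3% of active starts. Cdkn2d, with 0 tags at every time, and Cdkn1c, with 5 at 0 hpi and 2 at 48 hpi, were too low to give a direction. Among the 18 genes E2f7, an E2F repressor (215 to 23, -2.97), and Rbl1, which encodes p107 (640 to 223, -1.5), had the largest decreases. The largest increases were those of Gadd45a (318 to 484, 0.60) and Btg1 (419 to 596, 0.50).

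The markers of the 2 cell types moved in the directions of a change from pre-B cell to macrophage. All 8 pre-B markers were at least 2-fold lower in H3K27Ac at 48 hpi, with a median log2 change of -1.63. All 10 macrophage markers were at least 2-fold higher (from between 10 and 331 tags to between 91 and 1288, median 2.43), with Cd14, the lipopolysaccharide co-receptor, going from 34 to 1288. The medians of the pre-B markers were -0.58, -0.70, -0.83 and -1.63 at 3, 12, 24 and 48 hpi, beside -0.03, -0.44, -0.75 and -1.37 for the cell cycle genes, and at 24 hpi 0 of 8 pre-B markers were at least 2-fold lower, beside 17 of 41 cell cycle genes. The part of the change in cell type in the result was not tested. None of the 4 T cell or 3 fibroblast markers was marked by H3K27Ac at any time, with at most 13 and 19 tags, and 1 of 3 erythroid markers was, with 103 tags at 0 hpi and 89 at 48 hpi. Of 6 genes used by every cell 0 were at least 2-fold lower or higher at 48 hpi, with a median of -0.46. Tags per library, after keeping 1 per position, ranged from 10913733 to 31541879, and the libraries of each mark were thinned to the smallest. Keeping 1 tag per position limits strong windows, the fullest of which had tags at 42.3% of its positions, and the size of that limit on the changes was not tested.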

How the data were processed

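H3K27Ac, H3K4Me1 and H3K27Me3 were profiled by ChIP-seq in 15 libraries, 1 per mark and time. The deposited files hold positions of 36 bp tags, with no counts or normalization. The authors report alignment to mm9 with Eland or Bowtie, without mismatches, and removal of identical and non-unique tags. Which aligner served which library is not given in the sources used here. The files still held up to 205 and 135 tags at a position for H3K4Me1 at 0 and 48 hpi. Those of H3K27Me3 at 0 and 48 hpi held at most 1, and the rest at most 2. From the files, 1 tag per position was kept on chromosomes 1 to 19 and X, and each library was thinned to the smallest of its mark (15216488 tags for H3K27Ac, 10913733 for H3K4Me1 and 15338280 for H3K27Me3). Tag middles were counted in windows of 3000 bp (5000 bp for H3K27Me3) at the start with the most coding transcripts (GENCODE annotation of mm9). Starts within 500 bp were joined, and on a tie the most upstream was used. This was so for Ccnd3 and Cdkn1a, where each start had 1 coding transcript. The log2 changes have 5 tags added to each count. The 95% intervals beside them are exact binomial (Clopper-Pearson) for the ratio of the counts without added tags. Tag intervals are exact Poisson. Intervals cover counting error only. A start was called at 2-fold, and marked above a Poisson tail of 0.001 over the genome mean. Profiles use 500 bp bins, wider than first planned. The counting was tested on simulated data.

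The members and lists were chosen with earlier results of these data known. Members were named in full where they were at least 2-fold changed in any mark at any time, were marked by H3K27Me3 in 3 or more libraries, or were among the 5 highest or 5 lowest in H3K27Ac change. Of each pathway list the 2 largest changes in each direction were named, and also Cdkn1c and Cdkn2d for their few tags. Cell type markers were given by counts, with values for 1 macrophage gene, and the single pre-B marker also planned is not reported here. In all, 16 alternatives were planned (windows, scaling, thinning, start, pseudocount, filter and threshold). Python 3.11.15, numpy 2.4.6, scipy 1.17.1, pandas 2.3.3 and matplotlib 3.10.9 were used.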

Additional observations from a re-analysis of the deposited data

How the results depend on the processing

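No paired analysis was possible because there is 1 library for each combination of mark and time and no test was run. For the same reason no library could be left out. The count of members at least 2-fold lower in H3K27Ac at 48 hpi stayed within 1.5 times of 27 under every alternative run, being lowest, at 20, when libraries were scaled over bins enriched at all times. The count at 24 hpi went from 17 to 7 with scaling over unenriched bins. The H3K27Ac median at 48 hpi (-1.37) was -1.42 with tags as deposited, -1.43 with another seed, -1.29 with scaling over unenriched bins, -0.97 over enriched bins, -1.23 centred on all starts, -1.10 centred on active starts, -1.13 in wider windows, -1.52 in narrower windows and -1.62 without members that share a window. The H3K4Me1 counts are small. Its 2 lower members at 48 hpi became 4 with another seed or 1 tag added, 7 at 1.5-fold, and 1 with either bin scaling, either centring, wider or narrower windows, or a mean of at least 10 tags. Its 2 higher members became 12 with scaling over unenriched bins, 4 centred on all starts, 5 centred on active starts or at 1.5-fold, and 0 in wider or narrower windows. Its median (-0.09) was 0.61 over unenriched bins, 0.18 and 0.19 when centred on all and on active starts, and -0.20 and -0.22 in wider and narrower windows. Away from the starts the H3K4Me1 median went from -0.01 to -0.14 with flanks of 10 kb. For H3K27Me3 the 2 lower members became 1 with all tags scaled by the total, another seed, scaling over unenriched bins, wider or narrower windows, or without shared windows, 8 with 1 tag added and 10 at 1.5-fold, and the 0 higher members became 1 with tags as deposited, all tags scaled or narrower windows, 2 with another seed or 1 tag added, and 4 at 1.5-fold. Its median (-0.09) was 0.052 in wider windows. Of 517 values of single members, 402 lay within the counting interval of the reported value and 115 lay outside it. Among members called at 2-fold 0 values changed sign, and changes of sign at members not called were not counted. The cause of these differences was not tested. Depth limits H3K27Me3 and H3K4Me1 most, where the median window held 15 and 40 tags at 0 hpi.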
